A study of Mus musculus with 12 samples.

Results

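Integrins are paired receptors of the cell surface, each made of an α and a β chain, that hold cells to the extracellular matrix. The genes described here are 10 integrin chains outside the leukocyte-restricted group, chosen by name from the 20143 genes of a deposited table of liver RNA levels: the α chains Itga1, Itga5, Itga6, Itga8, Itga9 and Itgav and the β chains Itgb1, Itgb5, Itgb6 and Itgb8. All 10 were found in the table, 8 with a mean of at least 10 CPM (counts per 1000000 counts over the listed genes) and 2, Itgb8 and Itgb6, between 1 and 10 CPM. Livers came from 12 mice fed CDAA-HFD, a fat-rich diet lacking choline and with its protein given as free amino acids. Feeding began at 8 to 10 weeks of age and lasted 12 weeks. In 6 of them Hsd17b13, which encodes an enzyme of hepatocyte lipid droplets, was knocked out (KO), and 6 were wild type (WT). Each mouse gave 1 library, and all mice of both groups ate the diet, so there is no healthy reference. The sources used here name no strain, sex or extent of the deletion.

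The matrix of a scarring liver is laid down largely by stellate cells under the control of transforming growth factor β (TGF-β). TGF-β is secreted in a latent form, wrapped in a propeptide that carries, in some but not all TGF-β proteins, an arginine-glycine-aspartate (RGD) motif. Integrins that pair the αv chain with a β chain such as β6 or β8 bind this motif and free the growth factor, and β5 and β1 are further partners of αv. The chain α8, which pairs with β1, reads the same motif and is known as a stellate cell and pericyte gene, whereas β6 is known from epithelia, including reactive bile ducts. The other α chains described here pair with β1 and read fibronectin (α5), collagens (α1), laminins (α6) and tenascin-C (α9).

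Hsd17b13 separated the genotypes, with 315 to 393 CPM in WT and 0.956 to 1.40 CPM in KO. By the smallest step between the values of a library, 1 CPM stood for 46.3 to 77.9 counts, so the least abundant integrin, Itgb6, rested on 34 to 318 counts per library and Itgb1 on 10195 to 18780. At 34 counts the counting error alone is 17.2%. The hepatocyte markers (7 genes) summed to 54227 to 74019 CPM in WT and 55587 to 68985 CPM in KO. The genotypes were compared on log2(CPM + 1), as KO less WT, a scale that understates changes of rare genes. limma was fitted over the genes averaging 10 CPM or more and, for Itgb8 and Itgb6, over those averaging 1 CPM or more. With 6 mice per group the smallest two-sided exact permutation p is 0.00216.

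The starts of Itgav, of its most abundant partner after Itgb1, Itgb5, and of Itga8 are shown: Itgav and Itgb5 are the abundant chains of the TGF-β-activating group, and Itga8 had the widest difference among the integrins averaging 10 CPM or more. Each sequence is the 250 bases before the RefSeq start on GRCm38.p6 (mm10), read 5′ to 3′ on the gene's own strand. Capitals mark matches, on either strand, to TGANTCA (AP-1), GGAATG (TEAD), CAGAC (SMAD) or GGGCGG (GC box).
Itgav, chr2:83724147-83724396, strand +: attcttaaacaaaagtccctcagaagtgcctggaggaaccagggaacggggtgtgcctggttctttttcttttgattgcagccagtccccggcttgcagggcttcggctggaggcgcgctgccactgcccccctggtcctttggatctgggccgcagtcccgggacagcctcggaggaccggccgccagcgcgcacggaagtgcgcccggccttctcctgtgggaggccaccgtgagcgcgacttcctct
Itgb5, chr16:33829415-33829664, strand +: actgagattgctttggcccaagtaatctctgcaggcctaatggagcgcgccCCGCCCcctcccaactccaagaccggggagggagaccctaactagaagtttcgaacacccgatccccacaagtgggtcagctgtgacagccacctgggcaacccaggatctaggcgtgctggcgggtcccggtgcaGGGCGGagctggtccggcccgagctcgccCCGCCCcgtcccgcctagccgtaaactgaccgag
Itga8, chr2:12301945-12302194, strand -: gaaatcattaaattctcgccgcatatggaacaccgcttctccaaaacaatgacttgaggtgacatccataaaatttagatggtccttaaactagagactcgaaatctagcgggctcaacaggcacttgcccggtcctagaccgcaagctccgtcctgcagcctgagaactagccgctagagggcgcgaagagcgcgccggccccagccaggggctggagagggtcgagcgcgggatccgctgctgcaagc
The 3 GC boxes lay in the Itgb5 window, at 199, 63 and 34 bases before the start, and GGGCGG is found in 32.7% of the 32851 RefSeq promoter windows of this length. The Itgav and Itga8 windows held none of the 4 motifs. The AP-1, TEAD and SMAD motifs, present in 6.75%, 12.6% and 42.2% of windows, were in none of the 3 shown. All 250 bases of the Itga8 window lie in an exon of the antisense gene E030013I19Rik in GENCODE vM21. The windows of Itgb6 and Itgb8 overlap exons of these genes in GENCODE and are not shown. Promoters were matched for 9 of the 10 genes, with no entry for Itga6.

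All 10 integrins had lower means in KO than in WT, and none passed the test over all genes with libraries weighted equally and mice unpaired, but the signs of Itga1 and Itga9 turned under median-of-ratios scaling. With a pseudocount of 1, the differences ran from -1.02 for Itgb8 to -0.03 for Itga9. Of the 8 integrins averaging 10 CPM or more, 0 passed a limma adjusted p of 0.05. Of the 9186 genes tested 0.152% passed, 0.0435% lower and 0.109% higher in KO. An unadjusted p under 0.05 was found for 4 of the 8, against 9.8% of those genes (5.29% lower in KO), and 8 of 8 differences were negative, against 54.4%. Among the 15648 genes averaging 1 CPM or more, 0 of 10 passed, against 0.198% of genes (0.0959% lower and 0.102% higher in KO), and 6 of 10 had an unadjusted p under 0.05, against 11.3% (7.64% lower in KO). The median difference of the 10 was -0.23, compared with -0.03 over all genes of that fit, of which 60.8% had negative differences. The 14 genes that passed at 10 CPM became 9 without WT mouse 3 and 25 without KO mouse 3. The 31 that passed at 1 CPM became 15 to 20 without WT mouse 2, 3, 4 or 6 or KO mouse 2, 4 or 6, and 50 without KO mouse 3. Among the integrins, 0 passed in any of these fits. The plot of levels by mouse shows the 10 genes in order of abundance.

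**Figure D1:**
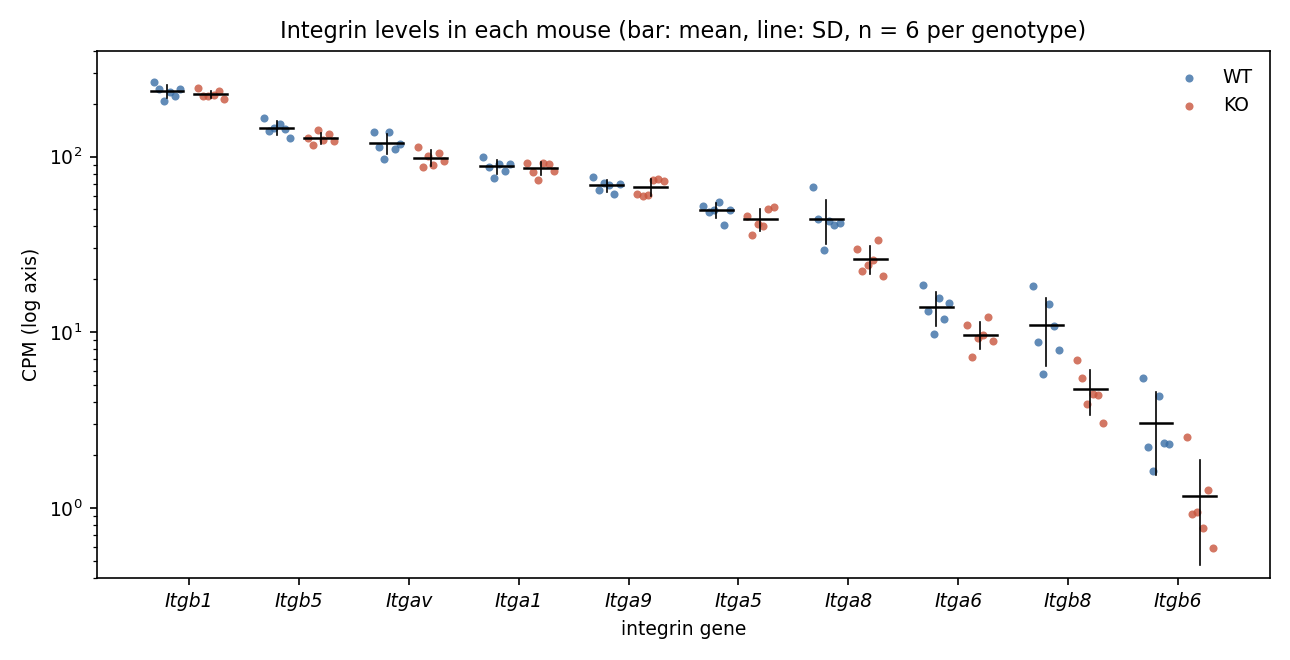
CPM (log axis) of the 10 integrin genes in 6 WT and 6 KO livers; points are mice, bars means and vertical lines SD. The groups overlap for every gene, and the gap between the means is widest on the log axis for the least abundant genes, Itgb8 and Itgb6.

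Among the chains that serve TGF-β activation, Itgb8 and Itgb6 had the widest differences and Itgav and Itgb5 narrower ones. Itgb8 (ENSMUSG00000025321, chromosome 12, 119158022 to 119238802, mm10) encodes the β8 chain, which binds latent TGF-β with αv. Its lowest, median and highest mouse were at 5.80, 9.82 and 18.2 CPM in WT and at 3.05, 4.44 and 6.97 CPM in KO. The means were 11.0 ± 4.60 (SD, n = 6) and 4.72 ± 1.36 CPM, and 5 of 6 KO mice lay below every WT mouse. At least 5 did so for 2.82% of the genes averaging 1 CPM or more. The log2 difference was -1.02 (SE 0.23, limma adjusted p = 0.0829, exact permutation p = 0.00433). Itgb8 passed with libraries weighted by quality (-1.01, limma adjusted p = 0.0391) and with mouse number as a replicate block (-1.02, 0.033). KO mouse 1 was the KO liver inside the WT range.

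Itgb6 (ENSMUSG00000026971, chromosome 2, 60598292 to 60722643) encodes the epithelial β6 chain and was the least abundant of the 10. It ran from 1.62 over 2.33 to 5.49 CPM in WT and from 0.589 over 0.940 to 2.52 CPM in KO. WT mice 1 and 4, at 5.49 and 4.36 CPM, stood above all others, and KO mouse 1, at 2.52 CPM, lay above 4 of the WT mice while the remaining KO mice lay below every WT mouse. The means were 3.06 ± 1.51 and 1.17 ± 0.697 CPM, with a log2 difference of -0.88 (SE 0.23, limma adjusted p = 0.114, exact permutation p = 0.0108). With a pseudocount of 0.1 it was -1.33 (adjusted p = 0.1), beyond the -1.15 of Itgb8, and the mean was 2.61 times as high in WT as in KO, compared with 2.33 times for Itgb8.

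Itgav (ENSMUSG00000027087, chromosome 2, 83724397 to 83806916), the shared α chain, was far more abundant than either. Its lowest, median and highest values were 97.0, 116 and 138 CPM in WT and 87.1, 97.9 and 113 CPM in KO. The log2 difference was -0.27 (SE 0.09, limma adjusted p = 0.286), between means of 119 ± 16.1 and 98.4 ± 9.91 CPM. Itgb5 (ENSMUSG00000022817, chromosome 16, 33829665 to 33949338), which encodes a vitronectin-binding partner of αv, ran from 128 over 144 to 166 CPM in WT and from 116 over 126 to 141 CPM in KO. Its means of 146 ± 12.8 and 128 ± 9.18 CPM differed by -0.19 on the log2 scale (SE 0.07, limma adjusted p = 0.307). For both genes the ranges overlapped, and 3 of 6 KO livers (Itgav) and 4 of 6 (Itgb5) lay under the whole WT group. The share of all genes with such counts was not computed.

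Of the RGD-reading chains that pair with β1, Itga8 had the wider difference and Itga5 the narrower, and neither passed. Itga8 (ENSMUSG00000026768, chromosome 2, 12106632 to 12301922) ran from 29.3 over 42.4 to 67.4 CPM in WT and from 20.9 over 25.0 to 33.4 CPM in KO. WT mouse 1 held the 67.4 CPM, and WT mouse 3, at 29.3 CPM, was the WT liver inside the KO range. The means of 44.4 ± 12.5 and 26.1 ± 4.74 CPM differed by -0.72 on the log2 scale (SE 0.16, limma adjusted p = 0.12, exact permutation p = 0.00649). Without WT mouse 1 the difference was -0.59 (adjusted p = 0.0998), and with libraries weighted by quality Itga8 passed (-0.78, adjusted p = 0.0448). Itga5 (ENSMUSG00000000555, chromosome 15, 103344286 to 103366763), the fibronectin receptor chain, ran from 40.6 over 49.8 to 55.0 CPM in WT and from 35.6 over 43.7 to 51.4 CPM in KO. Its log2 difference of -0.17 (SE 0.09, limma adjusted p = 0.628) lay within the overlap of the groups.

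Among the collagen, laminin and tenascin receptor chains, the laminin chain α6 had the widest difference, with no call. Itga6 (ENSMUSG00000027111, chromosome 2, 71745616 to 71858416) ran from 9.76 over 13.9 to 18.5 CPM in WT and from 7.25 over 9.43 to 12.1 CPM in KO. Its means were 13.9 ± 3.07 and 9.70 ± 1.71 CPM, with a log2 difference of -0.47 (SE 0.14, limma adjusted p = 0.216, exact permutation p = 0.0152). Below every WT mouse lay 4 of 6 KO mice, and the share of all genes with this count was not computed. Itga1 (ENSMUSG00000042284, chromosome 13, 114953096 to 115101964), the collagen receptor chain of sinusoidal and stellate cells, averaged 87.9 ± 8.11 CPM in WT livers and 85.5 ± 7.16 CPM in KO livers. Its difference was -0.04 (SE 0.07, limma adjusted p = 0.918). Itga9 (ENSMUSG00000039115, chromosome 9, 118606690 to 118901003), the tenascin-C receptor chain, was at 68.5 ± 5.38 and 67.1 ± 7.20 CPM, a difference of -0.03 (SE 0.08, limma adjusted p = 0.94). The signs for Itga1 and Itga9 turned under median-of-ratios scaling, to 0.0080 and 0.014. Itga1 also turned without KO mouse 3 (0.0025), and Itga9 without WT mouse 1 (0.00077).

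Itgb1 (ENSMUSG00000025809, chromosome 8, 128685654 to 128733200), the common β chain of most of these receptors, was the most abundant of the 10. It ran from 207 over 238 to 265 CPM in WT and from 212 over 222 to 244 CPM in KO, so the KO mice lay entirely within the WT range. The means were 235 ± 20.2 and 226 ± 11.5 CPM (log2 difference -0.05, SE 0.06, limma adjusted p = 0.857). The spread between mice, as SD over mean, was 8.59% for Itgb1 in WT, 28.1% for Itga8, 41.8% for Itgb8 and 49.4% for Itgb6.

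**Figure D2:**
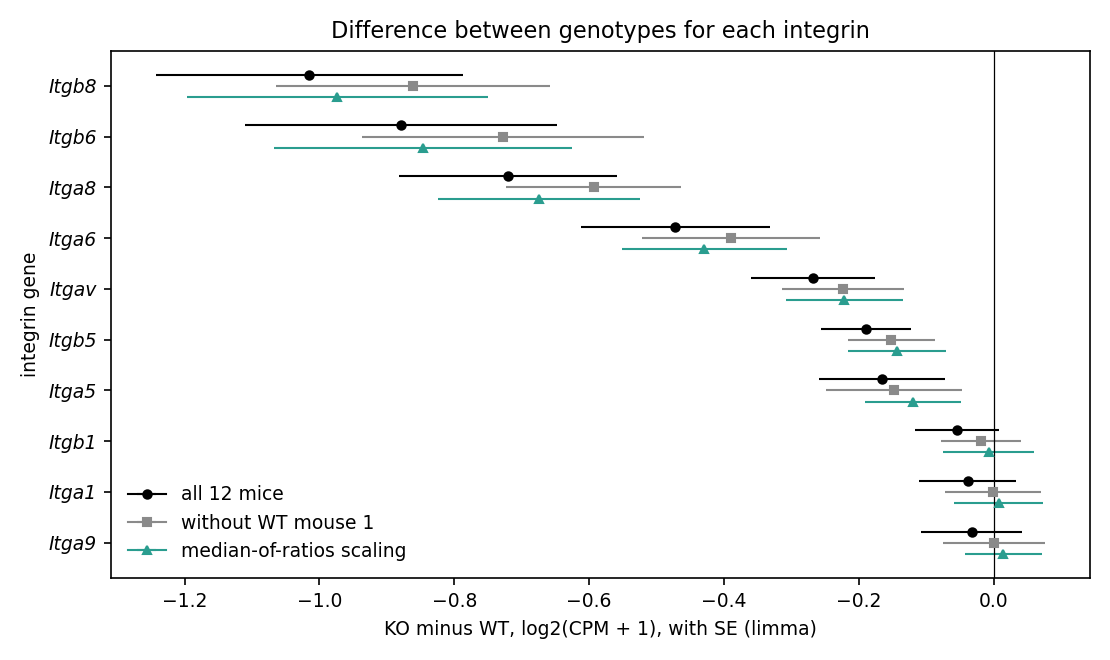
Difference between genotypes (KO minus WT, log2 of CPM + 1) with its SE for each integrin, from all 12 mice, without WT mouse 1, and after median-of-ratios scaling. Itgb8, Itgb6, Itga8 and Itga6 lie between -1.02 and -0.39 in all of these fits, while Itgb1, Itga1 and Itga9 lie within 0.06 of zero.

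In 9 of the 10 genes the highest of all 12 values belonged to WT mouse 1. The exception was Itga5, whose highest value was in WT mouse 4. Itgb8 was at -0.86 without WT mouse 1 (limma adjusted p = 0.102), Itgb6 at -0.73 (0.181) and Itga6 at -0.39 (0.409). KO mouse 2 held the lowest of the 12 values in 5 genes, and KO mouse 6 in 3. The shares of all genes highest in WT mouse 1, or lowest in these KO mice, were not computed.

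After subtracting each genotype's mean, Pearson's r over the 12 libraries was positive in 43 of 45 pairs of the 10 genes, with a median of 0.58. Over all pairs of genes averaging 1 CPM or more, 61.3% were positive and the median was 0.13. Without WT mouse 1, 36 of the 45 pairs were positive with a median of 0.50, and 61.5% of all pairs with a median of 0.13. The closest pairs were Itga8 with Itgb1 (0.92), Itgb6 with Itgb8 (0.91) and Itga6 with Itga8 (0.90), and the lowest was Itga9 with Itgb8 (-0.08). These values describe 12 libraries, whose depth and composition all genes share.

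Levels per kilobase of exon can be compared between genes. Itgb1 stood first in WT at 61.6 ± 5.29 CPM per kb, ahead of Itgb5 at 43.0 ± 3.79 and Itgav at 16.9 ± 2.28. Itga5 (11.3 ± 1.11), Itga9 (9.58 ± 0.752), Itga1 (8.01 ± 0.739) and Itga8 (7.63 ± 2.15 CPM per kb) followed, each overlapping its neighbour's range. Itga6 (3.20 ± 0.704), Itgb8 (1.31 ± 0.548) and Itgb6 (0.504 ± 0.249 CPM per kb) came last, and the ranges of Itgb8 and Itgb6 overlapped although Itgb8 was the higher in 6 of 6 WT and 6 of 6 KO mice. The order of the means was the same in KO.

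Among β chains that pair with αv other than β1 (Itgb3, Itgb5, Itgb6 and Itgb8), Itgb5 made up 93.3 ± 0.824% of the summed CPM per kb in WT and 93.8 ± 0.939% in KO. Itgb8 took 1.53% to 4.12% in WT mice and 0.942% to 2.07% in KO mice, and Itgb6 took 0.589% to 1.72% and 0.252% to 1.04%. Itgb6 and Itgb8 together came to 4.14 ± 1.46% of Itgb5 per kb in WT and 2.02 ± 0.740% in KO. Itgb3, the remaining chain, took 1.45% to 3.94% in WT mice and 3.35% to 6.02% in KO mice. Itgb6 and Itgb8 were thus a small part of the αv partner transcripts of a liver piece in both genotypes.

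Among the α chains that pair with β1, Itgav held 25.1 ± 1.25% of the summed CPM per kb in WT and 24.2 ± 1.80% in KO. The share of Itga8 was 8.50% to 14.5% in WT mice and 6.15% to 8.88% in KO mice, and that of Itga6 was 3.77% to 5.33% and 3.27% to 4.31%. Itga1 took 11.3% to 12.7% in WT and 12.3% to 14.8% in KO. Summed over 12 such chains, α transcripts per kb came to 109 ± 6.70% of Itgb1 in WT and 97.3 ± 6.79% in KO. Shares move together by construction, and RNA shares are not receptor numbers.

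**Figure D3:**
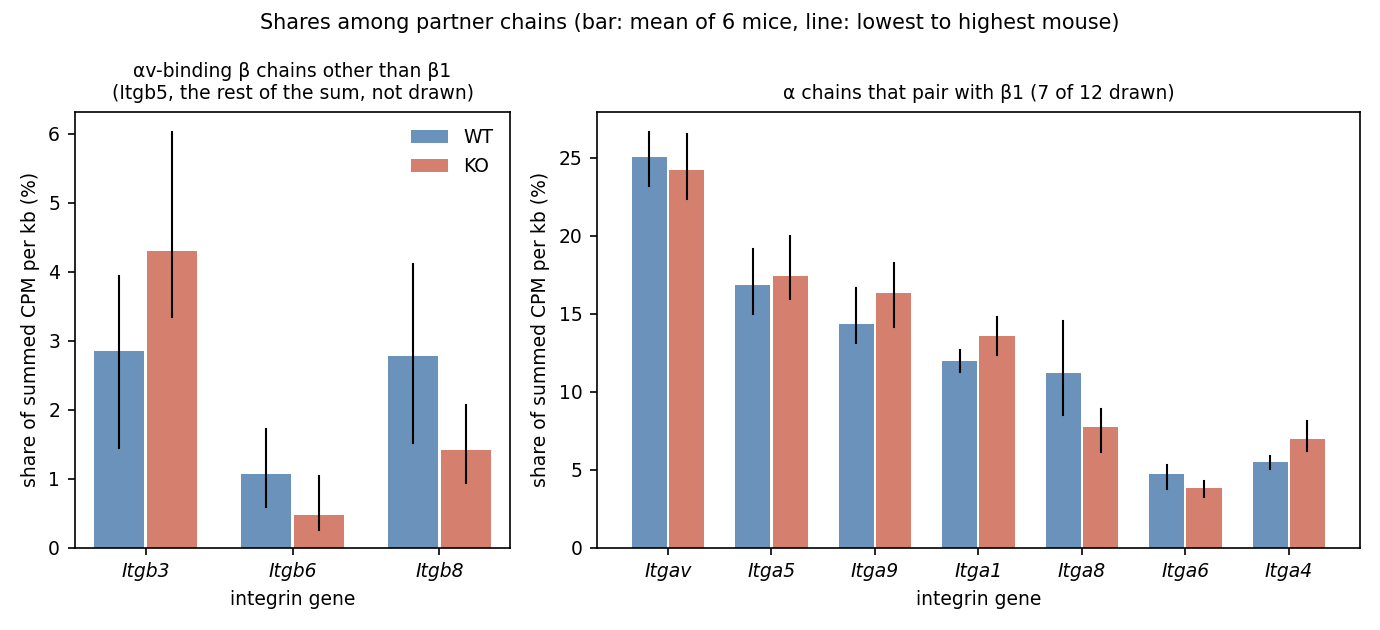
Share (%) of the summed CPM per kb taken by Itgb3, Itgb6 and Itgb8 among αv-binding β chains other than β1 (left; Itgb5 is the rest) and by 7 α chains among 12 that pair with β1 (right), as means of 6 mice with the lowest and highest mouse. The bars for Itgb6, Itgb8, Itga8, Itga6 and Itgav are shorter in KO, and those for Itga1, Itga4, Itga5, Itga9 and Itgb3 are taller.

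Because a liver piece is a mixture, fewer cells of a type and less RNA per cell cannot be told apart. Cell type markers were therefore read in the same libraries. All 9 cholangiocyte markers were in the table. The 8 with a mean of at least 1 CPM had negative differences, against 60.8% of genes in that fit. The keratin Krt7 fell (3.61 ± 1.30 to 1.23 ± 0.538 CPM, log2 difference -1.04, limma adjusted p = 0.0495), and 7 did not pass. Of all genes of that fit 0.0959% fell and 0.102% rose. The defining markers were low: Krt19 was at 6.01 ± 2.76 and 2.08 ± 0.727 CPM and Epcam at 12.2 ± 6.66 and 4.61 ± 2.54. Krt7 no longer passed without WT mouse 1, 2, 3, 4 or 6 or KO mouse 2, 4 or 6 (adjusted p = 0.0622 to 0.149), with pseudocounts of 0.1 or 0.5, without the mean trend or with no filter.

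The 9 cholangiocyte markers summed to 277 to 821 CPM in WT and 161 to 340 CPM in KO, with 5 of 6 KO sums below every WT sum. The highest sums, 821 and 592 CPM, were in WT mice 1 and 4, the mice highest in Itgb6 and Itgb8, and the highest KO sum, 340 CPM, was in KO mouse 1, the KO mouse highest in both genes. Spp1 made up 77.9% to 83.3% of the sum in each mouse. The 8 markers other than Spp1, a sum added after the values were seen, came to 57.6 to 141 CPM in WT and 30.9 to 58.1 CPM in KO, with the same mice highest and 5 of 6 KO sums below every WT sum. The part of these markers in the Itgb6 and Itgb8 differences was not tested. For Itga8, the 10 markers of activated stellate cells summed to 918 to 1572 CPM in WT and 779 to 996 CPM in KO, again highest in WT mouse 1. All 10 had negative differences, against 60.8% of genes averaging 1 CPM or more, and 0 passed limma. Of the 10, 9 had an unadjusted p under 0.05, against 11.3% of those genes (7.64% lower in KO). The 9 markers of quiescent stellate cells summed to 505 to 555 CPM in WT and 498 to 633 CPM in KO. Reln, at 224 ± 18.6 and 229 ± 27.8 CPM, was the largest term of that sum. Of the 9, 6 had positive and 3 negative differences, and 0 passed. An unadjusted p under 0.05 was found for 3 higher and 1 lower in KO. The part of the quiescent and the activated markers in the Itga8 difference was not tested. Sinusoidal endothelial markers (8 genes) summed to 408 to 507 CPM in WT and 387 to 554 CPM in KO, and 0 of 8 passed.

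**Figure D4:**
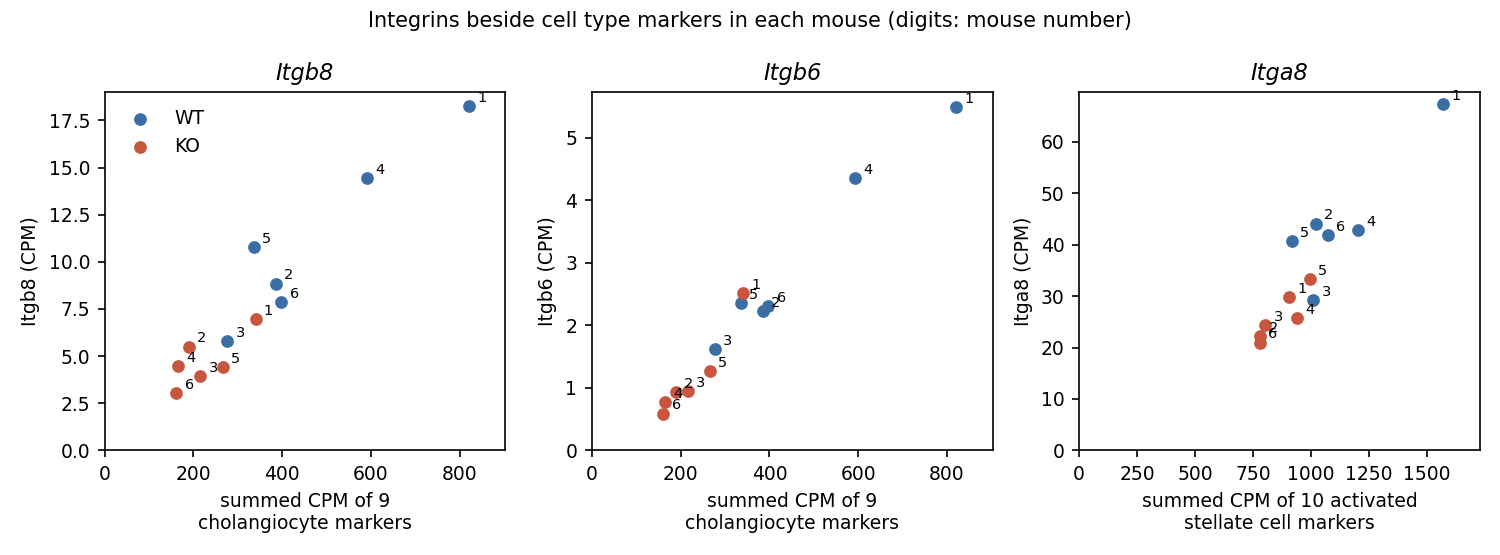
CPM of Itgb8 and Itgb6 against the summed CPM of 9 cholangiocyte markers, and of Itga8 against that of 10 activated stellate cell markers, 1 point per mouse with its number. WT mouse 1 is highest on all axes. KO mouse 1 (2.52 CPM of Itgb6) lies among the WT mice in the cholangiocyte panels, and KO mouse 5 (33.4 CPM of Itga8) in the stellate panel.

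The integrins outside the 10 included leukocyte, platelet and further epithelial chains. Of 14 with a mean of at least 1 CPM, 0 passed, 8 were negative and 6 positive. An unadjusted p under 0.05 was found for 6 of the 14, against 11.3% of genes in that fit. Of these, 5 were lower in KO and 1, the αv partner Itgb3, was higher. Itgb3 was at 7.43 ± 1.85 and 9.93 ± 2.44 CPM (log2 difference 0.38, SE 0.17, limma adjusted p = 0.411). Itgb4, the partner of α6 in epithelial anchoring junctions, averaged 4.69 ± 1.89 CPM in WT livers and 1.98 ± 0.502 CPM in KO livers (log2 difference -0.89, SE 0.18, limma adjusted p = 0.073), and all 6 KO mice lay below every WT mouse, as for 1% of genes in that fit. Itga3, another laminin-reading chain, was at 19.7 ± 3.66 and 13.6 ± 1.87 CPM (-0.49, limma adjusted p = 0.129), with the same separation, which 0.533% of the genes averaging 10 CPM or more showed (1.58% had at least 5 KO mice below every WT mouse). The β2 family chains of leukocytes were lower on average, with Itgam at 30.2 ± 5.96 and 21.3 ± 3.17 CPM (-0.48, 0.17), Itgax at 57.6 ± 10.9 and 44.8 ± 5.89 (-0.35, 0.286) and Itgb2 at 99.1 ± 16.5 and 80.1 ± 12.2 (-0.30, 0.388). Beside them, 7 markers of recruited macrophages summed to 1245 to 2170 CPM in WT and 835 to 1262 CPM in KO, and 7 of Kupffer cells to 361 to 541 and 545 to 728 CPM. Their part was not tested.

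The cargo of the αv integrins is latent TGF-β, and of 15 genes for it and its activation, 12 had a mean of at least 10 CPM. Of these 1 fell, 0 rose and 11 did not pass. Of all genes of that fit 0.0435% fell and 0.109% rose. The median difference of the 12 was -0.14. Ltbp2, a microfibril-associated relative of the latent TGF-β binding proteins, fell from 30.4 ± 11.3 to 13.5 ± 2.22 CPM (log2 difference -1.06, SE 0.18, limma adjusted p = 0.0356). That call was lost without WT mouse 2, 3, 4 or 6 or KO mouse 1, 2, 4 or 6 (adjusted p = 0.0627 to 0.119). Tgfb1 averaged 37.1 ± 3.78 CPM in WT livers and 35.2 ± 4.76 CPM in KO livers (-0.08, limma adjusted p = 0.871). The rarer Tgfb2 (5.89 ± 1.92 and 3.21 ± 0.552 CPM, -0.68, 0.0895) and Tgfb3 (7.47 ± 2.41 and 3.82 ± 0.650, -0.78, 0.0586) had lower KO values in all 6 mice than in any WT mouse, with no call. Of the genes averaging 1 CPM or more, 1% showed this separation. Ltbp3, which tethers latent TGF-β to the matrix, was at 24.7 ± 5.86 and 16.9 ± 2.57 CPM (-0.51, 0.178), the gelatinase Mmp2 at 26.6 ± 7.87 and 15.4 ± 2.98 (-0.73, 0.119), and thrombospondin Thbs1, an activator of latent TGF-β, at 36.3 ± 6.38 and 28.1 ± 5.61 (-0.36, 0.333).

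Downstream of activation, 15 of 16 receptors, SMADs and targets of TGF-β were tested at 10 CPM. Of these 1 fell (Ltbp2, which this list shares), against 0.0435% of all genes of that fit. None rose, 14 did not pass, and the median of the 15 was -0.15. The target Ccn2 was at 23.1 ± 5.64 and 13.3 ± 6.25 CPM (-0.82, limma adjusted p = 0.187), and passed when KO mice 1 and 3 were both left out (-1.04, 0.0294). The receptor Tgfbr2 was at 80.9 ± 8.21 and 72.5 ± 3.48 CPM (-0.15, 0.452), and the collagen crosslinking enzyme Loxl2 at 29.6 ± 4.87 and 25.4 ± 2.31 (-0.20, 0.527).

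Matrix and cell surface ligands of integrins had a median of -0.31 over 29 tested genes, of which 25 were negative and 0 passed. Over all genes averaging 10 CPM or more, 54.4% were negative. An unadjusted p under 0.05 was found for 16 of the 29, against 9.8% of those genes (5.29% lower in KO). The laminin chains Lama5 (24.3 ± 7.56 and 12.8 ± 2.69 CPM, -0.85, limma adjusted p = 0.114) and Lamb2 (20.2 ± 5.36 and 12.8 ± 1.90, -0.60, 0.129) are ligands of α6 and α3 receptors. Svep1, a ligand of α9, was at 49.6 ± 12.6 and 29.7 ± 6.10 CPM (-0.71, 0.114). It passed under median-of-ratios scaling (-0.67, 0.0483). Osteopontin (Spp1), which αv and α9 receptors read and which is also on the cholangiocyte list, was at 384 ± 171 and 182 ± 58.6 CPM (-1.02, 0.158). The hepatocyte-made ligands fibronectin (Fn1, 2711 ± 412 and 2817 ± 521 CPM, 0.05) and vitronectin (Vtn, 1575 ± 181 and 1679 ± 171, 0.09) had positive differences with no call. The part of the activated stellate cell markers, given above for Itga8, in the TGF-β and ligand lists was not tested. Col1a1 and Col3a1 stand on both that marker list and the ligand list.

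The list of adhesion complex and linker proteins had a median near that of all genes. It holds proteins that join integrin tails to actin, and also kinases such as Src and membrane proteins such as Cd9. Of 28 tested genes 0 passed with limma, against 0.152% of all genes of that fit. For 4 of the 28, 1 higher and 3 lower in KO, the unadjusted p was under 0.05. The share over all genes was 9.8% (5.29% lower in KO). The median was -0.02, beside -0.01 over all genes of that fit. The adaptor Lims2 was at 36.6 ± 3.05 and 42.3 ± 2.22 CPM (0.21, limma adjusted p = 0.212), Tns3, a tensin, at 170 ± 17.2 and 143 ± 11.1 (-0.24, 0.216), filamin Flna at 273 ± 47.6 and 219 ± 27.6 (-0.31, 0.335) and the kinase Src at 16.0 ± 3.60 and 11.9 ± 2.55 (-0.40, 0.348). The epithelial kindlin Fermt1 was at 4.75 ± 2.03 and 2.18 ± 0.911 CPM (-0.84, 0.114), whereas the broadly expressed kindlin Fermt2 was at 110 ± 9.84 and 110 ± 8.98 (0.01, 0.986).

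**Figure D5:**
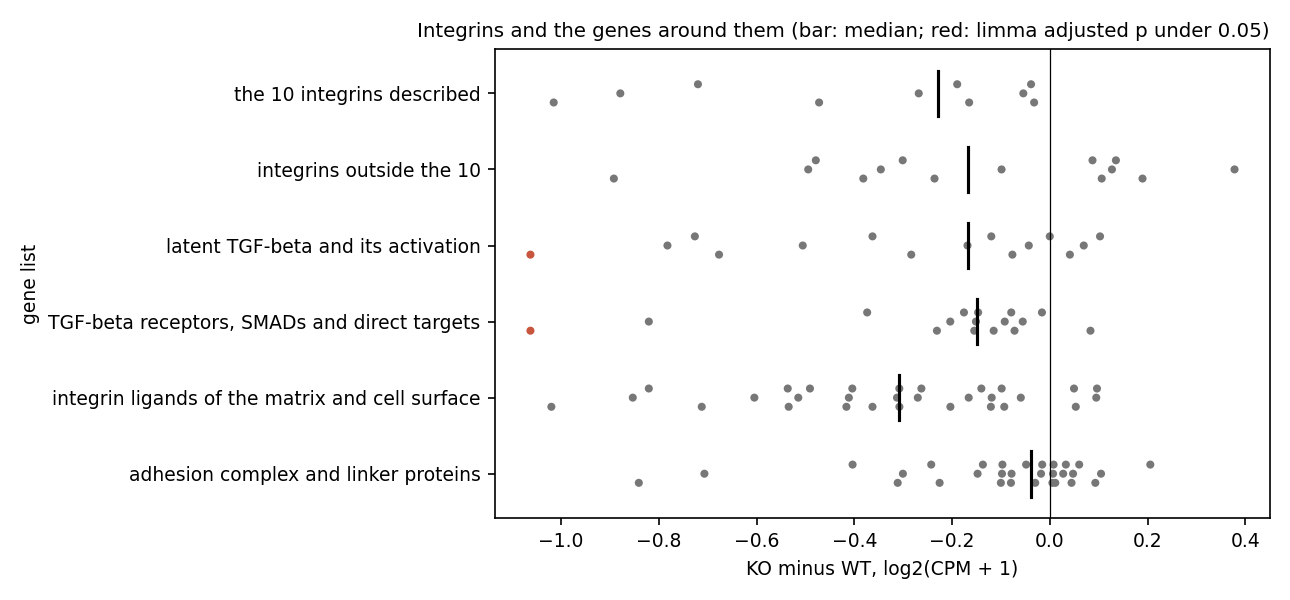
Difference between genotypes (KO minus WT, log2 of CPM + 1) for each gene of 6 lists with a mean of at least 1 CPM; bars are list medians over these genes, and red points passed a limma adjusted p of 0.05. Ltbp2, at -1.06, is the point that passed, in both lists that hold it. The median is -0.31 for ligands and -0.04 for adhesion complex and linker proteins.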

How the data were processed

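RNA levels were measured in liver from 6 WT and 6 KO mice. The authors deposited 1 table whose values are CPM, since each column sums to 1000000, and 71.4% to 76.6% of values under 0.6 CPM fell at whole steps of their library (tolerance 0.02 steps). The rest did not, so no count test was run. Per the submitters' processing notes, mm10, Partek 10.0, STAR 2.7.3a and DESeq2 1.14.1 were used, with no role given. For counter, annotation and strand setting the sources used here name nothing. Labels name polyA RNA and the protocol an rRNA depletion kit. Itga1, Itga6, Itga8, Itga9 and Itgav overlap antisense genes in GENCODE vM21, so reads of the pairs may mix. BLASTN 2.17.0 found no copy of the 10 genes (95% identity over 500 bases).

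The log2(CPM + 1) values were compared with limma 3.58.1 in R 4.3.3 (mean trend, two-sided, Benjamini-Hochberg over all genes tested, threshold 0.05). The filter was a mean of at least 10 CPM, or 1 CPM for rarer genes. The fits were tested on simulated data. Per kb levels used the union of coding transcripts' exons in GENCODE, and symbols matched 20055 of 20143 IDs. Labels name no litter or batch, so p-values measure the spread between these mice. The integrins and lists were chosen with earlier results of these data known. Beside the 10, the rule named up to 4 genes per list with the smallest p, and the 3 genes most like each integrin averaging 10 CPM or more (1 is not reported here). Itgb3, Itgb4, Tgfb1, Tgfb2, Tgfb3, Fn1, Vtn, Fermt1, Fermt2 and the cell type markers shown were chosen after their values were seen. Alternatives were other pseudocounts, scalings, filters, library weights, a replicate block and leaving out mice.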

Additional observations from a re-analysis of the deposited data

Results flagged for a closer look

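In KO livers, Itgb6 in mouse 1 (2.52 CPM) stood apart from the other 5, which lay between 0.589 and 1.26 CPM. The gap to the next mouse was 0.651 of the group's range, past the 95% limit of Dixon's test. Of 20 groups checked (10 genes in 2 genotypes) 1 was past that limit, and chance passes about 5%.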

How the results depend on the processing

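Itga5, Itga6, Itga8, Itgav, Itgb1, Itgb5, Itgb6 and Itgb8 kept negative differences under all 21 alternative fits. Without 1 mouse at a time, Itga1 lay between -0.079 and 0.0025 and Itga9 between -0.063 and 0.00077. Under median-of-ratios scaling these genes were at 0.0080 and 0.014, and Itga9 was at 0.034 without KO mice 1 and 3 together. Library weights gave 1 called integrin at 10 CPM, Itga8 (limma adjusted p = 0.0448), and Itgb8 at 1 CPM (0.0391). In the remaining fits at 10 CPM, including those with no filter or means of at least 50 CPM, 0 were called.

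The 14 calls over all genes at 10 CPM became 35 with library weights (54.3% higher, against 71.4%), 27 with median-of-ratios scaling (59.3% higher), 19 with quantile normalization (57.9% higher), 29 with no filter, 89 without KO mice 1 and 3 together, and 9 to 25 without 1 mouse. The 31 at 1 CPM became 212, 74, 76 and 192 with weights, median-of-ratios scaling, quantile normalization and without KO mice 1 and 3, and 15 to 50 without 1 mouse. These scalings put 34.9%, 39.2% and 46.1% of the calls higher, against 51.6%. The cause was not tested.

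With mouse number as a replicate block, 11 genes passed at 10 CPM and 43 at 1 CPM, Itgb8 did (-1.02, limma adjusted p = 0.033), and Ltbp2 (0.0886) and Krt7 (0.0583) did not. Same-numbered mice correlated from -0.514 to 0.388 in their deviations, and 2 of 6 WT mice matched their own number best. The labels do not say that the numbers pair the mice, and these correlations over all genes cannot exclude it. Depth limits Itgb6 most, with 34 counts in its lowest library.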

Other observations

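E030013I19Rik, an antisense gene over Itga8, averaged 1.91 ± 0.705 CPM in WT livers and 0.889 ± 0.158 CPM in KO livers (log2 difference -0.59, limma adjusted p = 0.0847). All 6 KO mice lay below every WT mouse, as for 1% of the genes averaging 1 CPM or more. Pelo, which lies within the Itga1 locus on the same strand, was at 17.8 ± 2.30 and 17.8 ± 2.86 CPM.

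For the 8 integrins averaging 10 CPM or more, the genes whose variation within a genotype was most like theirs, by Pearson's r over 12 libraries of log2 values less their genotype's mean, were as follows. Itga8 was most like Ints12 (0.96), Zfp386 (0.96) and the guanylate cyclase subunit Gucy1a1 (0.95). Itgb5 was most like Epb41l1 (0.92) and the integrin chain Itga3 (0.92). Itga6 was most like the gap junction gene Gja1 (0.97), Ifngr1 (0.96) and Vezf1 (0.95), and Itgav was most like Atp2c1 (0.96), Rps6ka3 (0.96) and Rcn2 (0.95). Itga9 was most like the metalloproteinase-family gene Adamts10 (0.97), Dennd2a (0.96) and Hdac7 (0.96), and Itga5 was most like Arhgap25 (0.94), Pitpna (0.94) and Cox17 (0.94). Itga1 was most like Eif3j1 (0.98), Alkbh8 (0.98) and Mysm1 (0.97), and Itgb1 was most like Zfp518a (0.97), Eapp (0.96) and Asah1 (0.96). The libraries share depth and composition, and each r is the top of a ranking over all genes compared.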
